A study of Solanum lycopersicum with 6 samples.

Results

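Solyc10g085950.2, which the table describes as aluminum sensitive 3 (ALS3), was followed in roots of tomato (Solanum lycopersicum); it was chosen by its identifier, and is 1 gene of the 35768 listed. The roots came from plants 20 days after germination grown in a solution with aluminium (Al, 60 µM) at pH 4.7, with 3 libraries from the slszp1 mutant and 3 from wild type. The labels describe the samples as biological replicates without saying whether each came from separate plants. The p-values thus weigh a difference against the spread between these samples only as labelled. Those of limma also draw on the spread of other genes. Both genotypes received Al, so the comparison is of genotypes in Al and says nothing of how Al itself changed ALS3. The labels do not give the kind of slszp1 allele or the number of lines. No gene description names SZP1, so that gene could not serve as a check of the genotypes.

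Aluminium becomes soluble in acid soil and stops root growth by binding to cell walls and membranes. In Arabidopsis, ALS3 is a membrane protein related to ABC transporters that lacks their nucleotide-binding domain and is needed to keep roots growing in Al. Its rice counterpart STAR2 works with STAR1, a protein that supplies the nucleotide-binding domain, and the pair carries UDP-glucose. In Arabidopsis roots, the rise of ALS3 under Al requires the zinc finger factor STOP1 (SENSITIVE TO PROTON RHIZOTOXICITY 1), and SZP1 is known as a zinc finger protein that interacts with STOP1.

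Values were treated as TPM, an abundance per transcript length on a common scale, with sums of 940694 to 974316 per library. A total of 17050 to 17728 genes reached 1 TPM in each library. The 17702 genes that reached 1 TPM in 3 or more of the 6 libraries were tested with limma, and a gene is said to have risen or fallen where its Benjamini-Hochberg adjusted p was under 0.05. Of all tested genes, 19.2% passed, 8.71% higher and 10.5% lower in the mutant, and the median change was -0.0005. Levels below are in TPM with the mean ± SD over n = 3 libraries. Changes are differences in log2(TPM + 1), mutant minus wild type, and understate the change of low genes. Of the root markers, 2 of 3 Casparian strip genes were tested and neither passed, with a summed level of 36.98 to 39.46 TPM in slszp1 and 32.11 to 37.75 TPM in wild type. The 1 gene whose description names xylem was listed at 0 in every library.

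ALS3 was nearly off in the mutant roots and well expressed in wild type. Levels were 0.7, 0.23 and 0.42 TPM in mutant replicates 1, 2 and 3, and 91.97, 38.68 and 99.94 TPM in the same order in wild type. The groups were far apart, and the lowest wild type value was 55.3 times the highest mutant value. The mean was 0.45 ± 0.236 TPM in slszp1 and 76.9 ± 33.3 TPM in wild type, a ratio of 171. ALS3 fell by 5.65 on the log2(TPM + 1) scale (SE 0.35, 95% confidence interval of the change -6.46 to -4.83), with a limma adjusted p of 5.72e-05. ALS3 was picked with this difference already known, and it reached the minimum for testing through the wild type libraries alone, so the p describes the size of the fall against the spread. A two-sided exact permutation test over the 20 ways to divide the libraries gave p = 0.1, the smallest that 3 against 3 allows. In bulk roots, fewer cells that express ALS3 and less ALS3 RNA per cell cannot be told apart.

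**Figure D1:**
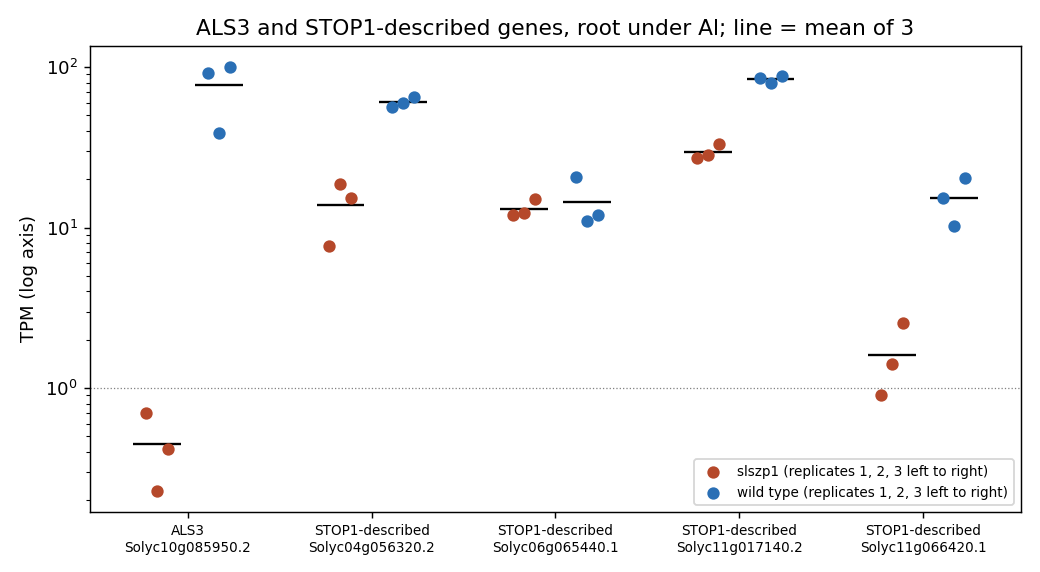
TPM on a log axis for ALS3 and the 4 STOP1-described genes, with 1 point per library, the slszp1 mutant on the left and wild type on the right of each gene, and a line at the mean of 3. All mutant points of ALS3 lie under 1 TPM (dotted line) and all its wild type points at 38.68 TPM or more, while Solyc06g065440.1 overlaps between genotypes.

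The position of ALS3 within each library shows the same gap. In wild type, 10.9%, 23.2% and 10.3% of tested genes were more abundant than ALS3 in replicates 1, 2 and 3. In the mutant, 97.2%, 98.9% and 98.4% were more abundant. Among all tested genes the fall of ALS3 was the 7th largest in size. Its mean lay above that of 86.9% of tested genes in wild type and of 0.842% in the mutant. ALS3 was tested through wild type alone, so its low place among tested genes in the mutant follows from the minimum for testing. Ranked among all 35768 listed genes it was 17904, 19769 and 19126 in mutant replicates 1, 2 and 3. The ranks in wild type were 1933, 4108 and 1823. In every library 10620 of the listed genes were at 0.

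The wild type libraries themselves differed in ALS3, with replicate 2 well below the other two. The highest wild type value was 2.58 times the lowest. The SD of log2(TPM + 1) over the wild type libraries was 0.746 for ALS3, against a median of 0.21 for the 3069 tested genes within 2-fold of its wild type mean, and 96.2% of those genes varied less. Wild type replicate 2 was the lowest of its group in 50.1% of those 3069 genes. Without it, the change of ALS3 was -6.07 and the limma adjusted p was 1.1e-05. Over all alternatives the change ran from -7.10 to -5.40 and the adjusted p from 1.1e-05 to 0.00165.

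The listed genes around ALS3 on chromosome 10, taken in the order of their identifiers, did not share its fall. Of the 5 genes on either side, 8 were tested and 0 passed limma, against 19.2% of all tested genes. With only 8 genes, 0 that passed is not far from that share. The lowest limma adjusted p was 0.16. An unadjusted limma p under 0.05 was seen in 0 of the 8, against 5758 of all 17702 tested genes. Their changes ran from -0.58 to 0.27, and in 0 of the 8 did the genotypes stand apart, against 20.2% of all tested genes with every mutant library below and 18.2% with every mutant library above wild type. The gene just before ALS3, a low-quality model for a membrane-associated kinase regulator (Solyc10g085940.1), was listed at 0 in every mutant library and at 0.64, 0 and 0.26 TPM in wild type. The gene just after it, described as Pathogenesis-related protein 1 (Solyc10g085960.1), held 1.73 ± 0.714 TPM in slszp1 and 2.3 ± 0.748 TPM in wild type. The most abundant neighbour, a SAP domain ribonucleoprotein gene (Solyc10g085970.2), held 59.1 ± 16.4 and 66.7 ± 5.62 TPM.

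**Figure D2:**
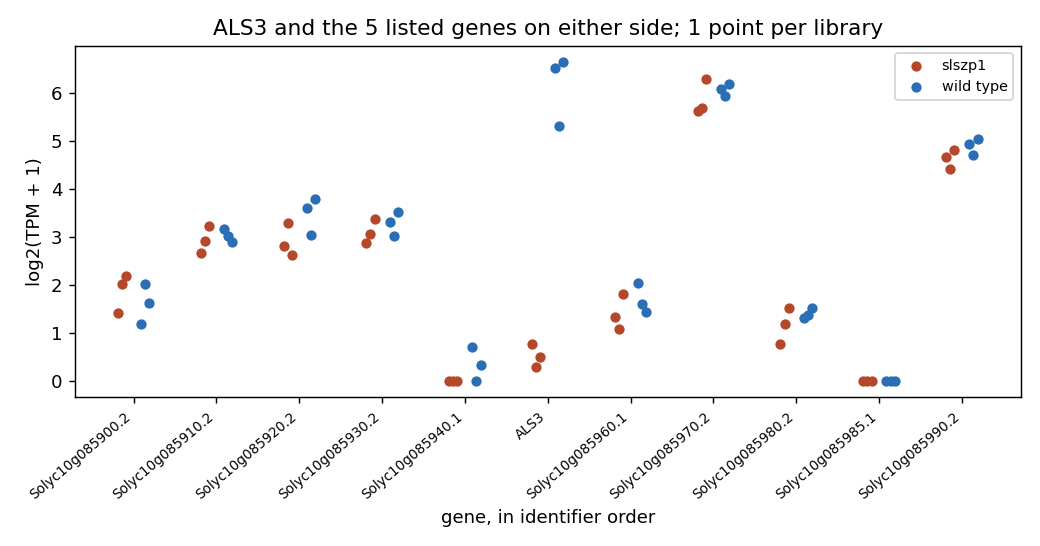
Level in log2(TPM + 1) of ALS3 and the 5 listed genes before and after it in identifier order, with 1 point per library. ALS3 is the gene whose genotypes separate, from 0.23 to 0.7 TPM in the mutant to 38.68 to 99.94 TPM in wild type, and the 8 tested neighbours changed by -0.58 to 0.27.

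Genes described as STOP1, the factor upstream of ALS3 in Arabidopsis, were lower in the mutant in 3 of 4 cases, each by less than ALS3. Of the Al tolerance list, 8 genes were listed and 6 tested, and 0 rose and 4 fell, ALS3 included (66.7% lower, against 10.5% of all tested genes). The mutant lay below wild type without overlap in 5 of the 6, ALS3 included, against 20.2% of all tested genes. The median change of the list, ALS3 included, was -1.80, against -0.0005 over all tested genes. ALS3 was picked with its fall known, so its part in these figures was set by that choice. Solyc11g017140.2, the most abundant STOP1-described gene, held 27.07, 28.36 and 33.29 TPM in slszp1 and 85.23, 79.11 and 87.54 TPM in wild type. Its wild type libraries lay close together, including replicate 2, where ALS3 was low. Solyc04g056320.2 held 7.69, 18.67 and 15.19 TPM against 56.44, 59.57 and 65.22 TPM. The low-quality model Solyc11g066420.1 held 0.91, 1.41 and 2.53 TPM against 15.36, 10.28 and 20.49 TPM, and as with ALS3 its lowest wild type value was in replicate 2. A low replicate 2 was common among tested genes near the level of ALS3, as given above. The changes of these 3 genes were -1.48, -2.13 and -2.64, with limma adjusted p of 0.000314, 0.00177 and 0.000768.

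The remaining members of the Al tolerance list did not pass. Solyc06g065440.1, the only one of the 4 whose description in the table cites Arabidopsis STOP1 as its match, held 11.9, 12.31 and 15.01 TPM in slszp1 and 20.56, 11.04 and 12 TPM in wild type, and the genotypes overlapped. Its change was -0.10 and its limma adjusted p 0.819, and without wild type replicate 1 the change was 0.16. Solyc08g081110.2, a low-quality model described as aluminum induced, held 1.05 ± 0.0723 and 1.57 ± 0.609 TPM. The difference between the change of ALS3 and that of another list member was -3.002 at its smallest, against Solyc11g066420.1, and -5.55 at its largest, against Solyc06g065440.1. In all 5 such pairs the mutant libraries lay below the wild type libraries in the ratio of ALS3 to the other gene. The two-sided exact permutation p was 0.1 in each, also when adjusted over the 5, which is the smallest the design allows. A level cannot go below 0 TPM, so a gene low in wild type cannot fall as far as ALS3 on this scale. That holds for Solyc08g081110.2, Solyc06g065440.1 and Solyc11g066420.1, with wild type means of 1.57, 14.5 and 15.4 TPM. ALS3 was also picked with its fall known, so these pairs cannot show that its response differs. The table held 0 descriptions that name STAR1, STAR2 or ALS1, so the partner of ALS3 was not analysed here.

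Other tested genes of the kinds that STOP1 controls in Arabidopsis were lower in 4 of 9 cases and did not pass in 5. With 9 genes, 0 that rose is near the 8.71% of all tested genes that did. Of 35 listed genes for glutamate dehydrogenase, polygalacturonase inhibitors, the kinase CIPK23 and Al-activated malate transporters, 9 were tested and 4 fell (44.4%, against 10.5% of all tested genes), with a median change of -0.16. MATE citrate exporters were left out of this list as a family of their own. Some members that missed the minimum for testing also separated the genotypes. Every mutant library lay above wild type in Solyc01g096140.3, Solyc09g014480.2 and Solyc08g082950.3, and below it in Solyc11g071350.1. Their levels were close to 0, so these separations carry little weight. In the same order, the means were 1.24, 1.23, 0.05 and 0.0167 TPM in slszp1. In wild type they were 0.22, 0.613, 0 and 0.183 TPM. The glutamate dehydrogenase gene Solyc10g078550.3, an enzyme linking glutamate to 2-oxoglutarate, held 967 ± 202 TPM in slszp1 and 2291 ± 366 TPM in wild type. The polygalacturonase inhibitor gene Solyc07g065090.2, from a family that blocks pectin-degrading enzymes, held 13.48, 5.99 and 7.65 TPM against 44.13, 29.07 and 44.48 TPM, a change of -2.05 (limma adjusted p = 0.0023). Like ALS3, this gene was lowest in wild type replicate 2 and separated the genotypes. Both features were common. Replicate 2 was lowest in 50.1% of tested genes within 2-fold of the wild type mean of ALS3. In 20.2% of all tested genes every mutant library lay below wild type. A second glutamate dehydrogenase gene, Solyc06g005450.1, held 4.61, 5.01 and 4.71 TPM against 25.29, 7.87 and 26.69 TPM, and its limma adjusted p was 0.0287. That gene no longer passed when any library other than wild type replicate 2 was left out (limma adjusted p of 0.0772 to 0.103, and 0.000187 to 0.103 over all alternatives). The CIPK23 model, Solyc01g106630.2, had libraries at 18.16, 10.07 and 30.69 TPM against 3641.52, 191.92 and 1786.93 TPM. Its limma adjusted p was 0.0166, and 0.0608 to 0.0987 without replicate 1 or 2 of the mutant, or replicate 1 or 3 of wild type (0.000636 to 0.0987 over all alternatives). With any 1 of those same 4 libraries left out, 2 genes of the list fell. The malate transporter gene Solyc03g096820.3, of a family with members that release Al-binding malate, did not pass at 8.5 ± 1.07 and 8.64 ± 2.13 TPM, nor did the glutamate dehydrogenase gene Solyc01g068210.3 at 26.3 ± 6.29 and 20.2 ± 3.09 TPM.

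Set beside the ABC transporters, the superfamily to which ALS3 is related, its fall was larger than that of every tested member. A level cannot go below 0 TPM, so ABC genes with low wild type levels could not fall as far on this scale. The rank of ALS3 thus rests in part on its wild type level. The description of ALS3 does not use the words of this list, so ALS3 is not in it. Of 207 listed ABC genes, 78 were tested, and 2 rose and 16 fell (20.5% lower, against 10.5% of all tested genes). The median change of the list was -0.14, and 38.1% of all tested genes had a change that low or lower. In wild type, 14 of the 78 were more abundant than ALS3, and in the mutant 3 of the 78 were less abundant. All 78 had to reach the minimum for testing, as ALS3 did through wild type alone, so few could lie below its mutant level. The counts were 9 lower without mutant replicate 1 or 2 and 10 lower without wild type replicate 3. They were 1 higher without mutant replicate 2 or wild type replicate 1, 5 higher without wild type replicate 3, and 4 higher with each library centred on its median.

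A single ABC gene came near ALS3 in the size of its fall. Solyc06g068600.3, described as an ABC transporter family protein, held 0.3, 0.28 and 0.1 TPM in slszp1 and 30.75, 10 and 30.22 TPM in wild type. Like ALS3 it was under 1 TPM in every mutant library, and replicate 2 was the lowest wild type library here too, a common feature as given above. Its change was -4.18 (SE 0.40, limma adjusted p = 0.000416), and it was the only one of the 78 to fall by 2 or more on the log2 scale. The next largest changes were those of a pleiotropic drug resistance gene, Solyc12g019620.2, with 2.63 ± 0.857 and 9.01 ± 1.09 TPM, and of the abundant Solyc08g006880.3, of the multidrug resistance type, with 49.9 ± 9.54 and 139 ± 31.2 TPM. The 3 most abundant ABC genes in wild type did not pass limma. Of these, the ABC family B gene Solyc06g009290.3 was highest in wild type replicate 2, at 703.81 TPM against 142.93 and 179.81 TPM in replicates 1 and 3, the opposite of ALS3.

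Taken library by library, ALS3 moved from above to below the middle of the ABC list. On the log2(TPM + 1) scale ALS3 lay 3.04, 1.80 and 3.08 above the list median in wild type replicates 1, 2 and 3. It lay below that median in the mutant, with differences of -2.65, -3.33 and -3.09. The shift between genotypes was -5.66, and the two-sided exact permutation test gave p = 0.1, the smallest that 3 against 3 allows. The list median itself was 3.41 to 3.62 in the mutant and 3.50 to 3.58 in wild type. Since that median moved little, the shift restates the fall of ALS3, which was known when ALS3 was picked. It is no separate result about the ABC list.

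**Figure D3:**
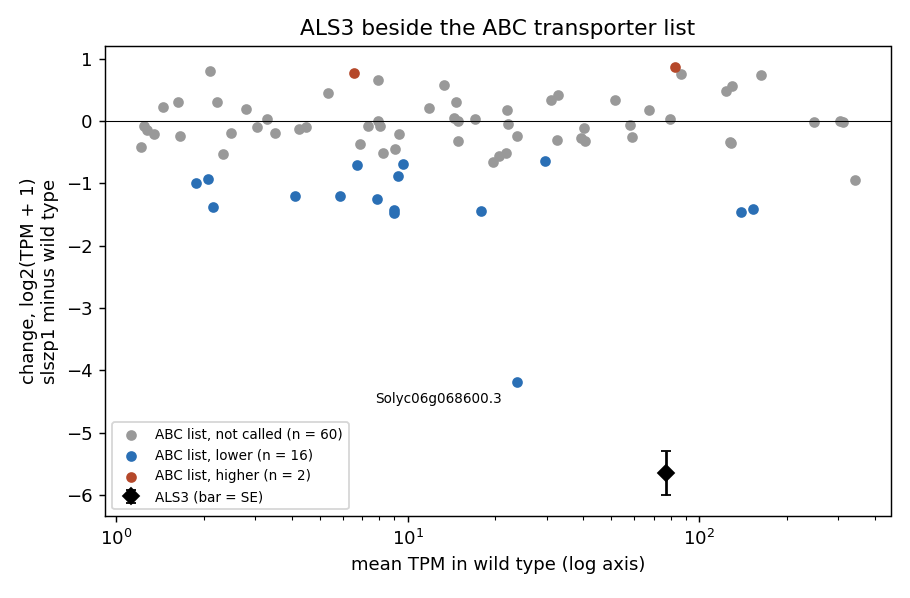
Change in log2(TPM + 1), slszp1 minus wild type, against the wild type mean in TPM on a log axis, for the 78 tested ABC transporter genes and ALS3 (diamond, bar = SE). Of the 78 ABC genes 77 lie within 1.5 of 0, Solyc06g068600.3 lies at -4.18 and ALS3 at -5.65.

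Because the rice STAR1 and STAR2 pair carries UDP-glucose, other transporters of nucleotide sugars, which feed wall polysaccharide synthesis, were set beside ALS3. Of 25 listed, 19 were tested, and 1 rose and 5 fell (26.3% lower, against 10.5% of all tested genes), with a median change of -0.31. The largest change was -1.01, at Solyc10g079280.2 with 1.16 ± 0.179 TPM in slszp1 and 3.42 ± 1.11 TPM in wild type. Solyc12g095790.2 held 15.4 ± 1.25 against 27.2 ± 1.001 TPM, and the UDP-galactose transporter 5 gene Solyc06g005290.3 rose, with 16 ± 3.55 against 7.96 ± 0.603 TPM. Of the 5 falls, only that of Solyc12g095790.2 passed limma without each library in turn. Its highest limma adjusted p over the alternatives was 0.0306. The other 4 falls did not pass without mutant replicate 1, nor without wild type replicate 1, and 2 of them failed under further alternatives (highest limma adjusted p of 0.0611 to 0.137).

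The gene whose pattern over the 6 libraries was most like that of ALS3 was Solyc06g051550.3, described as fe inefficient (FER), which encodes the bHLH regulator of iron acquisition in tomato. Likeness was measured as the root mean square difference in log2(TPM + 1), each gene taken relative to its own mean, and this choice favours genes with a fall of the same size and with the same high and low libraries. FER held 0.52, 0.12 and 0.48 TPM in slszp1 and 101.73, 49.28 and 106.54 TPM in wild type. In both genes mutant replicate 2 was the lowest mutant library and wild type replicate 2 the lowest wild type library. The difference from ALS3 was 0.17, against a median of 2.87 over all tested genes. FER remained the nearest gene with a pseudocount of 0.1 and without each library in turn, except without wild type replicate 3, where ACI19 was nearest.

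The other near genes were of several kinds. The second, at 0.33, was a RING/U-box gene (Solyc04g009780.1) with 1.11, 1.06 and 1.78 TPM in slszp1 and 112.7, 83.85 and 125.7 TPM in wild type. The third, at 0.41, was the small auxin up-regulated RNA38 gene (Solyc03g097510.1), at 1.43 ± 1.15 and 149.9 ± 34.7 TPM. ACI19 (Solyc02g065550.3) and a low-quality ferredoxin-NADP reductase model (Solyc12g062200.1) were listed at 0 in every mutant library and held 61.35, 25.7 and 31.11 TPM and 35.59, 13.31 and 38.77 TPM in wild type. Solyc03g025720.3, described as 4-coumarate:CoA ligase-like, fell from a higher level, 644 ± 225 TPM, to 20.8 ± 4.86 TPM. A heat shock protein 90 gene (Solyc04g081630.2) held 0.203 ± 0.214 and 31.7 ± 15.6 TPM. The 8th, the NOD26-like intrinsic protein 1.1 gene (Solyc03g005980.3), of an aquaporin family that passes small solutes, held 48.84, 48.36 and 46.41 TPM in wild type. It was the only one of the 8 whose wild type replicate 2 was not the lowest. With a pseudocount of 0.1 the list kept 4 of the 8, and without wild type replicate 2 it kept 5.

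**Figure D4:**
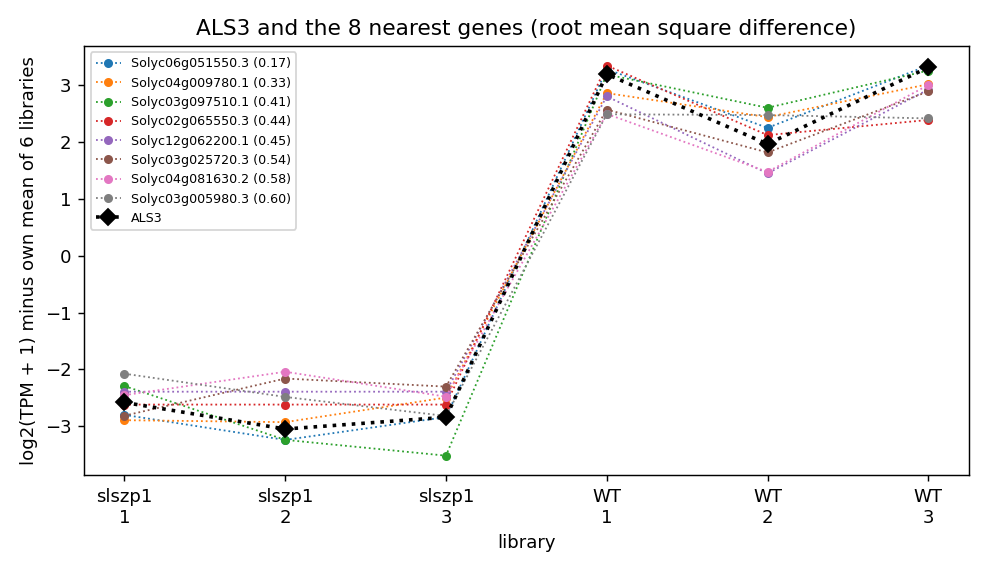
Level of ALS3 (black) and the 8 nearest genes in each library, in log2(TPM + 1) minus the gene's own mean over 6 libraries; the legend gives each gene's root mean square difference from ALS3, and the dotted lines only join points of the same gene. FER (Solyc06g051550.3, 0.17) follows ALS3 most closely, and 7 of the 8 genes are lowest among wild type libraries in replicate 2, a feature of ALS3 that the choice of near genes used.

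Few genes showed the off-to-on contrast of ALS3. Genes under 1 TPM in every mutant library and at 10 TPM or more in every wild type library numbered 15, and 17 had the reverse pattern. By wild type mean ALS3 was the 4th of the 15, after Solyc07g007330.1 (serine-rich), a low-quality model described as maturase K (Solyc09g056390.1) and FER. Of the 15, 5 were listed at 0 in all mutant libraries, whereas ALS3 was above 0 in each. Others among the 15 move ions and water: HAK5 (Solyc12g005670.2), a high-affinity potassium transporter, held 0, 0.1 and 0.07 TPM against 22.96, 14.48 and 30.47 TPM. A vacuolar iron transporter family gene (Solyc01g104780.3) held 0.15, 0 and 0.36 TPM against 16.6, 11.32 and 13.92 TPM, and the aquaporin gene plasma membrane intrinsic protein 1.1 (Solyc08g008050.3) held 0.57 ± 0.44 against 18.1 ± 3.44 TPM. HAK5 and these 2 genes were named after their values were seen. In 13 of the 15, ALS3 included, replicate 2 was the lowest wild type library. It was so in 50.1% of the tested genes within 2-fold of the wild type mean of ALS3. The 15 had wild type means of 13.95 to 171.7 TPM, most of them outside that range. That share is thus from an unlike set, and no excess was shown. Of the 15, 4 were also among the nearest genes above, whose choice used that feature. With limits of 1 and 20 TPM, 6 genes had the pattern of ALS3 and 6 the reverse. Without wild type replicate 2 the counts were 28 and 26.

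Among markers of root cell types, phloem genes changed in both directions, the called dividing-cell genes all fell, and the root hair and root cap genes did not pass. ALS3 is known in phloem and root cortex of Arabidopsis. Of 22 genes whose descriptions name phloem or sieve elements, 14 were tested, and 4 rose and 4 fell (28.6% each way, against 8.71% higher and 10.5% lower of all tested genes). Their summed level was 167.5 to 176.5 TPM in slszp1 and 164.1 to 220.6 TPM in wild type, and 3 were listed at 0 in every library. Of the 8 genes whose descriptions name root hairs 3 were tested and 0 passed limma, against 19.2% of all tested genes. An unadjusted limma p under 0.05 was seen in 0 of the 3, against 5758 of all 17702 tested genes. The summed level of the 8 was 136.2 to 154.5 TPM in slszp1 and 125.6 to 171.3 TPM in wild type. Most of it came from Solyc03g121590.3, with means of 104 and 106 TPM. This gene and the tested Solyc02g030450.3 are described as ROOT HAIR DEFECTIVE 3 homologs, and whether they mark root hair cells was not tested. Of the 2 root cap genes, both tested, 0 passed limma, against 19.2% of all tested genes. An unadjusted limma p under 0.05 was seen in 1 of the 2, as in 5758 of all 17702 tested genes. Their sums were 1.69 to 6.36 TPM in slszp1 and 3.17 to 5.34 TPM in wild type. Of 32 histone H4 and cyclin B genes, a list for dividing cells, 19 were tested, and 0 rose and 5 fell (0% higher and 26.3% lower, against 8.71% and 10.5% of all tested genes). Their changes ran from -1.20 to 4.09, and the gene with the change of 4.09 did not pass. The summed levels overlapped, at 1081 to 1431 TPM in slszp1 and 1337 to 2214 TPM in wild type, and 8 genes were at 0 in every library. Of 90 leaf photosynthesis genes 25 were tested, and 3 rose and 2 fell (12% and 8%, against 8.71% and 10.5% of all tested genes), with sums of 368.5 to 399.3 TPM in slszp1 and 239 to 266 TPM in wild type and 29 at 0 in every library. The summed level of the leaf list was thus higher in every mutant library than in any wild type library. The part of these markers in the fall of ALS3 was not tested.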

How the data were processed

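Root libraries, 3 mutant and 3 wild type, were deposited by the authors as values per gene in a single table. The header states no unit; the deposited values carry 2 decimals and sum to 940694 to 974316, so TPM is inferred. The submitters' processing notes list TopHat2, HISAT2, StringTie and Cufflinks and say neither which step each served nor its version; the genome build is not given in sources used here. Since TPM does not retain depth, the counting error behind values under 1 TPM could not be given. All gene names are the table's own; 0 identifiers matched the RefSeq gene table.

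Groups came from the labels. Values were analysed as log2(TPM + 1) for genes reaching 1 TPM in 3 or more of 6 libraries, with limma 3.58.1 (trend and robust, statmod 1.5.0) in R 4.3.3, Benjamini-Hochberg adjustment over all tested genes, and a threshold of 0.05, after a test on simulated data. Single values used exact permutation tests. Gene lists were patterns in the descriptions and are given by counts; a list for low-phosphate root growth matched 0 genes. Genes named were every Al tolerance gene tested, called STOP1 targets with the 2 most abundant others, ABC genes by size of change or level, called nucleotide sugar transporters, 5 neighbours on either side, the 8 nearest in pattern, and the most abundant genes of the off-to-on pattern; the text gives a selection. ALS3, the lists and the rules were chosen with earlier results of these data known. Alternatives were a pseudocount of 0.1, no filter, quantile normalization, median centring, a replicate block, other limits and each library left out. Those for likeness were added after seeing the data.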

Additional observations from a re-analysis of the deposited data

How the results depend on the processing

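The fall of ALS3 passed limma under all 11 alternatives tried, with changes of -5.40 to -6.07 without single libraries and -7.10 with a pseudocount of 0.1. Its shift against the ABC list was -5.44 to -6.08 without single libraries. The replicate numbers gave no sign of paired libraries. Same-numbered libraries had deviations correlated at -0.048, -0.074 and 0.108, and differently numbered ones at -0.083 to 0.141. With 3 libraries per group these correlations cannot exclude a shared batch. With a replicate block the change of ALS3 was -5.65 (limma adjusted p = 0.000974). The pairing left the counts of Al tolerance, STOP1 target and ABC genes within 1.5 times of those given. Over all tested genes, 994 to 1764 rose and 1131 to 2042 fell without single libraries. Without single libraries 2 to 4 STOP1 targets fell, 1 to 5 ABC genes rose and 9 to 15 fell, and with median centring 4 ABC genes rose. The off-to-on genes numbered 16 to 28 without single libraries and 6 with limits of 1 and 20 TPM, and the reverse 19 to 26 and 6. Signs turned in 4 genes that did not pass: Solyc06g065440.1 (-0.257 to 0.163 without single libraries), Solyc11g069090.2 (0.0247 under quantile normalization, -0.130 to 0.176 without single libraries), Solyc05g051530.3 (-0.144 to 0.181) and Solyc10g085910.2 (-0.230 to 0.0514). The cause was not tested. Depth is unknown, so the order of the mutant values under 1 TPM is uncertain.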
